A study of Homo sapiens with 12 samples.

Results

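The 10 genes described here are core regulators and markers of the epithelial-mesenchymal transition (EMT): CDH1, CDH2, EPCAM, VIM, ZEB1, ZEB2, SNAI1, SNAI2, ESRP1 and ESRP2. They were taken by gene symbol, and 10 of 10 were found among the 22650 symbols listed in any library. RNA was sequenced from Panc1 and MiaPaCa2, established human lines of pancreatic ductal adenocarcinoma, as wild-type cells and as cells labelled ASAP2 knockout. ASAP2 encodes an Arf GTPase-activating protein with roles in vesicle traffic and cell adhesion. The 4 groups, Panc1 wild-type, Panc1 ASAP2 knockout, MiaPaCa2 wild-type and MiaPaCa2 ASAP2 knockout, held 3 libraries each, 12 in all. How the knockout was made, and whether each is 1 clone or a pool, is not given in the sources used. The labels do not tell whether libraries of the same group are separate cultures, so p-values measure the spread between these libraries, which may be technical.

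During EMT, epithelial cells loosen their junctions and take on migratory traits. Zinc-finger repressors of the SNAI and ZEB families bind E-box motifs at epithelial genes such as CDH1, which encodes E-cadherin, and a switch from E-cadherin to N-cadherin, encoded by CDH2, is a classic sign of the transition. The splicing factors ESRP1 and ESRP2 maintain epithelial exon choice, and the intermediate filament protein vimentin, encoded by VIM, marks mesenchymal cells. In pancreatic cancer, Panc1 and MiaPaCa2 are widely used as lines with mesenchymal traits.

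Levels are FPKM, fragments per kilobase of transcript scaled to the mapped fragments of the library, which makes genes comparable per length within a library. The libraries listed 17958 to 19105 genes, of which 11842 to 12500 reached 1 FPKM, and the sum of FPKM was 360765 to 392610. Read depth is unknown, since the files hold no counts. A gene that a library did not list was taken as 0 in the fit and is written below as not listed. Across genes, r was 0.9931 to 0.9971 between libraries of 1 group and 0.9663 to 0.9887 between genotypes of 1 line. ASAP2 itself read 38.6, 37.5 and 34.6 FPKM in Panc1 wild-type and 14.2, 14.5 and 12.7 FPKM in Panc1 knockout libraries, a fall by 1.36 on the log2(FPKM + 1) scale (adjusted p = 1.5e-08, limma). In MiaPaCa2, ASAP2 read 13.2, 13.6 and 13.8 FPKM in wild-type and 12.01, 13.8 and 11.3 FPKM in the libraries labelled knockout, with a difference of -0.13 (adjusted p = 0.197, limma). That difference was called with array weights (-0.17, adjusted p = 0.0153) and without MiaPaCa2 knockout replicate 2 (-0.20, adjusted p = 0.0315). The ASAP2 transcript level therefore sets the MiaPaCa2 groups apart by little, and every MiaPaCa2 direction below is between libraries labelled knockout and wild-type.

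Differences were tested with limma on log2(FPKM + 1), a scale that understates the change of low genes, over 13340 genes that averaged 1 FPKM or more in a line. Called genes are those whose adjusted p, over all of these, fell below 0.05. Of the 10 EMT genes, 6 passed this minimum (CDH2, EPCAM, VIM, ZEB1, SNAI1 and ESRP2), while CDH1, ZEB2, SNAI2 and ESRP1 were too low. Panc1 knockout differed from wild-type in much of the transcriptome: 63.5% of the tested genes were called, 21.8% higher and 41.6% lower, and the median of all tested genes was -0.10. The lower calls were 65.6% of all calls as deposited, 50.6% after scaling by the median ratio, 52.1% after quantile normalization and 73.7% on a TPM scale. Median-ratio scaling moved the median of all genes to -0.01. In MiaPaCa2, 34.1% of the genes were called, 17.8% higher and 16.3% lower, with a median of 0.01. Against this background 3 of the 6 tested EMT genes were called higher and 1 lower in Panc1 knockout. In MiaPaCa2 limma called 0 higher and 1 lower, and also 0 were higher at an unadjusted p under 0.05. CDH2, EPCAM and ESRP2 passed the minimum through Panc1 alone, with MiaPaCa2 group means of at most 0.361 FPKM. The MiaPaCa2 count therefore rests on VIM, ZEB1 and SNAI1. The genes' share of calls in Panc1 (4 of 6) is near that of all genes, so the counts are a description and the values of each gene carry the account.

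**Figure D1:**
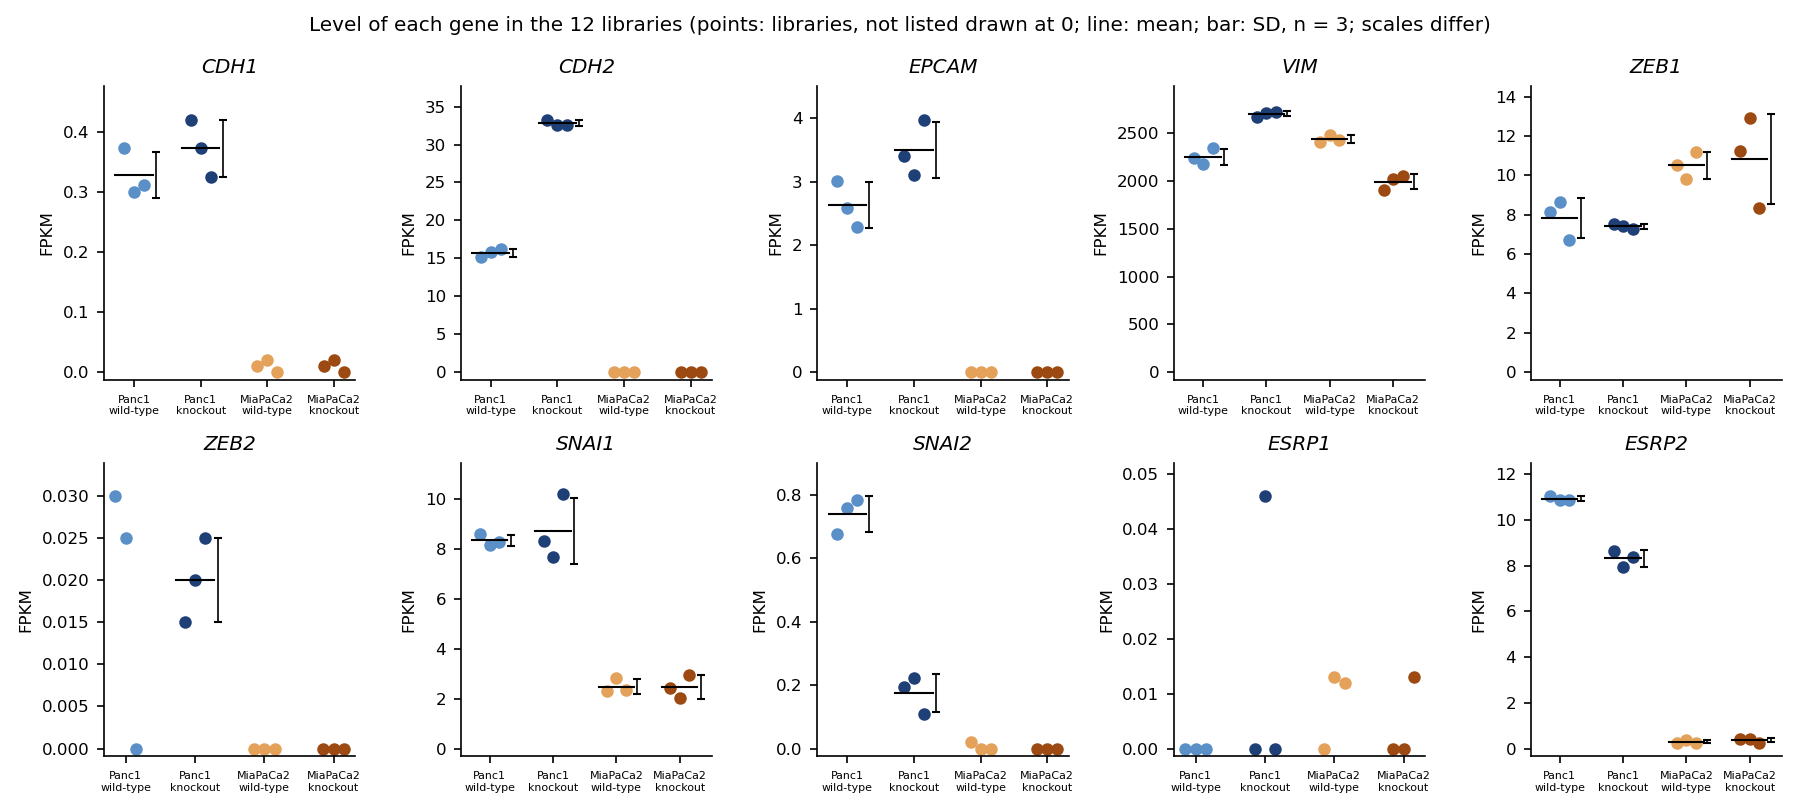
FPKM of each of the 10 EMT genes (vertical axis, a separate scale per gene) in the 4 groups (horizontal axis); points are libraries, horizontal lines are means and bars are the SD of 3 libraries, drawn where all 3 list the gene. CDH2 is at 15.1 to 16.2 FPKM in Panc1 wild-type and 32.5 to 33.3 FPKM in Panc1 knockout, while CDH2 and EPCAM are at or near 0 in MiaPaCa2.

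The regions just upstream of the transcription start are shown for 3 genes, since the repressors among the 10 act through E-boxes in such regions. The RefSeq promoter table (GRCh38.p14) has no entry for CDH1, EPCAM, SNAI1 and ESRP2. Windows of CDH2, VIM, ZEB1 and ZEB2 were taken from it, and windows of SNAI2 and ESRP1 are not reported here. Shown are the 250 bases before the most upstream listed start of CDH2 (chr18:28177131-28177380, minus strand), VIM (chr10:17227991-17228240, plus strand) and ZEB1 (chr10:31318167-31318416, plus strand). CDH2 and VIM were called higher in Panc1 knockout, and ZEB1 was not called in either line. Letters are in lower case, and capitals mark the E-box CAGGTG or its reverse complement CACCTG, the form to which SNAI and ZEB proteins bind.
CDH2: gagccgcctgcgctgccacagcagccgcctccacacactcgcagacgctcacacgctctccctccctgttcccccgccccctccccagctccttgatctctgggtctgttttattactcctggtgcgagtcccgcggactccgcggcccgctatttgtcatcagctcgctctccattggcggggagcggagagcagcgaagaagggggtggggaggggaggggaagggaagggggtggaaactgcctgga
VIM: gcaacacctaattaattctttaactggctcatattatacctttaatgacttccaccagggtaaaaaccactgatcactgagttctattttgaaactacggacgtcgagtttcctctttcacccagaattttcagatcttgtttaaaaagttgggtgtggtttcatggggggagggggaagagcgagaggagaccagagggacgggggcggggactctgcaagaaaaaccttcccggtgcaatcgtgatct
ZEB1: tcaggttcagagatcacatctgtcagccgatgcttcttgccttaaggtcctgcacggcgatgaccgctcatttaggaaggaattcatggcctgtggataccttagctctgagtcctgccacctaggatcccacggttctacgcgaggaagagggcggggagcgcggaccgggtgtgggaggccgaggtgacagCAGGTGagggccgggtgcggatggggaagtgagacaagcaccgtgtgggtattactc
The ZEB1 window holds 1 such E-box, whose first base lies at -57 from the start, and the CDH2 and VIM windows hold 0. The table lists 7 starts of ZEB1 and 2 of CDH2: of the 6 ZEB1 windows not printed, 1 holds 2 E-boxes, at -242 and -85 (chr10:31318966-31319215), and 5 hold 0, as does the other CDH2 window. Both strands were searched by looking for the 2 forms, no other motif was searched, and 17.5% of the 35116 windows of the same length in the table hold at least 1. G and C made up 66.0% of the CDH2 window, 46.0% of the VIM window and 59.2% of the ZEB1 window.

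Among the cadherins, CDH2 rose in Panc1 knockout and was all but unlisted in MiaPaCa2. CDH2 encodes N-cadherin, the neural and mesenchymal classical cadherin, and lies on chromosome 18 (hg19, 25512843 to 25757910). Panc1 wild-type libraries held 15.1, 15.8 and 16.2 FPKM, and Panc1 knockout libraries 33.3, 32.5 and 32.6 FPKM. The groups lie far apart with little spread inside either. Their means were 15.7 ± 0.563 and 32.8 ± 0.397 FPKM (SD, n = 3), a ratio of 2.09. The log2 difference was 1.02 (SE 0.05, 95% interval 0.91 to 1.12, adjusted p = 6.1e-09, limma). In MiaPaCa2 the gene was listed in 1 wild-type library, at 0.036 FPKM, and in none labelled knockout. Since these are bulk samples, more cells with the transcript and more transcript per cell cannot be told apart. Of the 20 other tested genes within 5 Mb of CDH2, 20 had a lower Panc1 change than CDH2, with a median of -0.18.

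CDH1 was low throughout. It encodes E-cadherin, the adhesion molecule of epithelial junctions, and lies on chromosome 16 (68771195 to 68869440). In Panc1 wild-type it read 0.372, 0.300 and 0.311 FPKM, and in Panc1 knockout 0.419, 0.373 and 0.324 FPKM. These ranges overlap. MiaPaCa2 listed it at 0.010 and 0.020 FPKM in 2 of 3 libraries of each genotype. CDH1 was below the minimum for testing. With no filter, when 22641 genes enter the fit, the Panc1 difference was 0.05 (adjusted p = 0.209, limma). The ratio of CDH2 to CDH1 was thus 40.6 to 52.6 in Panc1 wild-type and 79.4 to 101 in Panc1 knockout libraries.

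EPCAM, an epithelial surface glycoprotein of cell adhesion, rose in Panc1 knockout at a low level. It lies on chromosome 2 (47572297 to 47614740). Panc1 wild-type libraries held 3.02, 2.59 and 2.29 FPKM, and Panc1 knockout libraries 3.41, 3.10 and 3.97 FPKM. The groups do not overlap, but the highest wild-type and the lowest knockout library are close. The ratio of means was 1.33 and the log2 difference 0.31 (SE 0.08, 95% interval 0.13 to 0.48, adjusted p = 0.00493, limma), or 0.47 after quantile normalization. No MiaPaCa2 library listed EPCAM. Thus in Panc1 the epithelial marker EPCAM and the mesenchymal markers CDH2 and VIM were called higher together, each without overlap between the groups. In all, 70.1% of tested genes had no overlap in Panc1 and 43.5% in MiaPaCa2.

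VIM, on chromosome 10 (17270240 to 17279592), had the highest level of the 10 genes in every library. Its FPKM was 2244, 2177 and 2345 in Panc1 wild-type and 2675, 2715 and 2729 in Panc1 knockout. In MiaPaCa2 it was 2409, 2483 and 2434 in wild-type and 1905, 2019 and 2055 in the libraries labelled knockout. The genotypes do not overlap in either line, and the direction is opposite. The change was 0.26 in Panc1 (SE 0.04, adjusted p = 1.3e-04, limma) and -0.29 in MiaPaCa2 (SE 0.04, adjusted p = 2.2e-04, limma), ratios of 1.20 and 0.816. Quantile normalization turned the Panc1 change to -0.17 (adjusted p = 0.0471, limma). That method sets values by rank: 3 to 5 genes stood above VIM in Panc1 wild-type libraries and 6 to 7 in Panc1 knockout. VIM took 0.604 to 0.642% of the FPKM sum in Panc1 wild-type, 0.703 to 0.711% in Panc1 knockout, 0.614 to 0.646% in MiaPaCa2 wild-type and 0.488 to 0.532% in MiaPaCa2 labelled knockout. Within 5 Mb of VIM, 30 other genes had a median change of -0.07 in Panc1 and -0.01 in MiaPaCa2.

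The ZEB repressors showed no called difference between genotypes. ZEB1, a zinc-finger and homeodomain repressor of CDH1 and of the miR-200 genes, lies on chromosome 10 (31607424 to 31818742). It read 8.14, 8.63 and 6.69 FPKM in Panc1 wild-type and 7.52, 7.41 and 7.28 FPKM in Panc1 knockout. In MiaPaCa2 it read 10.53, 9.82 and 11.2 FPKM in wild-type and 11.2, 12.9 and 8.34 FPKM in the libraries labelled knockout. The genotypes overlap in both lines, and the 3 libraries labelled MiaPaCa2 knockout spread most. The difference was -0.06 in Panc1 (95% interval -0.33 to 0.20, adjusted p = 0.668, limma) and 0.02 in MiaPaCa2 (-0.24 to 0.29, adjusted p = 0.927). ZEB2, its paralog, was listed at 0.030 and 0.025 FPKM in 2 Panc1 wild-type libraries, at 0.015 to 0.025 FPKM in the 3 Panc1 knockout libraries and in no MiaPaCa2 library. The only miR-200 or miR-205 host transcript among the listed symbols, MIR200CHG, was at 0 in every group but MiaPaCa2 labelled knockout, where the mean was 0.008 FPKM.

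Of the SNAI repressors, SNAI1 was not called in either line and SNAI2 was lower in Panc1 knockout. SNAI1, on chromosome 20 (48599517 to 48605423), encodes Snail, a short-lived repressor of CDH1. It read 8.60, 8.16 and 8.28 FPKM in Panc1 wild-type and 8.31, 7.67 and 10.2 FPKM in Panc1 knockout, so that the wild-type range lies inside the knockout range. In MiaPaCa2 it read 2.29, 2.81 and 2.34 FPKM in wild-type and 2.42, 2.01 and 2.95 FPKM in the libraries labelled knockout, again inside. The difference was 0.05 in Panc1 (95% interval -0.19 to 0.28, adjusted p = 0.712, limma) and -0.01 in MiaPaCa2 (-0.25 to 0.22, adjusted p = 0.944). These intervals bound a change but do not show that the levels are equal.

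SNAI2 encodes Slug, a related repressor, and lies on chromosome 8 (49830157 to 49834299). Panc1 wild-type libraries held 0.676, 0.758 and 0.784 FPKM, and Panc1 knockout libraries 0.193, 0.223 and 0.109 FPKM, a ratio of means of 0.237. The lowest wild-type library was well above the highest knockout library. SNAI2 fell below the minimum of the main test. With no filter the difference was -0.57 (SE 0.03, adjusted p = 1.1e-06, limma). In MiaPaCa2 it was listed in 1 wild-type library, at 0.022 FPKM, and in none labelled knockout. SNAI1 exceeded SNAI2 by 10.6 to 12.7 times in Panc1 wild-type and by 34.4 to 93.6 times in Panc1 knockout libraries. The 9 tested genes within 5 Mb of SNAI2 had a median change of -0.40 in Panc1, against -0.18 for the whole chromosome; their part in the result was not tested.

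The splicing regulator ESRP2 fell in Panc1 knockout, and its paralog ESRP1 was near 0 everywhere. ESRP2 lies on chromosome 16 (68262936 to 68272005), 499 kb from CDH1. It read 11.04, 10.9 and 10.9 FPKM in Panc1 wild-type and 8.65, 7.93 and 8.38 FPKM in Panc1 knockout, with no overlap and a ratio of means of 0.762. The log2 difference was -0.36 (SE 0.06, 95% interval -0.50 to -0.22, adjusted p = 3.9e-04, limma). It became -0.22 after quantile normalization, and the highest adjusted p over the scaling, filter and model settings was 0.0436, with a pseudocount of 0.1. In MiaPaCa2 the gene was low, at 0.254, 0.363 and 0.243 FPKM in wild-type and 0.424, 0.410 and 0.249 FPKM in the libraries labelled knockout, and these ranges overlap (0.08, 95% interval -0.06 to 0.22, adjusted p = 0.378, limma). Of 94 other tested genes within 5 Mb, 10 had a lower Panc1 change than ESRP2, and their median was -0.06. ESRP1 was listed at 0.046 FPKM in 1 Panc1 knockout library, at 0.012 and 0.013 FPKM in 2 MiaPaCa2 wild-type libraries and at 0.013 FPKM in 1 labelled knockout. ESRP2 made up almost the whole ESRP transcript level in Panc1.

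**Figure D2:**
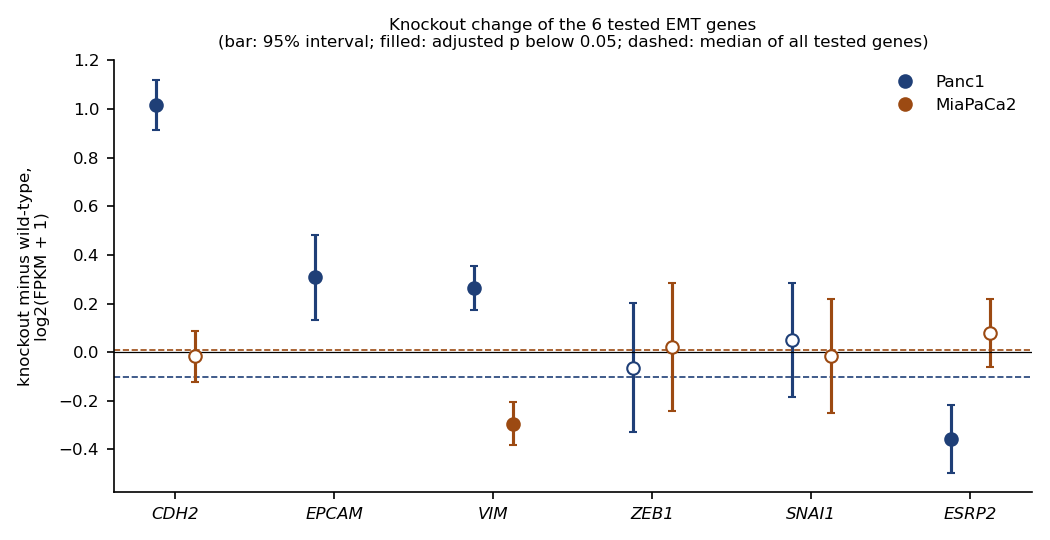
Knockout minus wild-type difference on the log2(FPKM + 1) scale (vertical axis) of the 6 tested EMT genes in Panc1 and MiaPaCa2; bars are 95% intervals, filled points passed an adjusted p of 0.05 and dashed lines are the medians of all tested genes. EPCAM is drawn for Panc1 alone because no MiaPaCa2 library lists it; VIM lies at 0.26 in Panc1 and -0.29 in MiaPaCa2.

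Whether the genotype difference itself differed between the lines was tested in the same fit, in which 57.4% of all genes were called, 20.0% higher in Panc1 and 37.4% lower. Of the 6 tested EMT genes, 3 were called with the higher change in Panc1 and 1 with the lower. The difference was 1.03 for CDH2 (SE 0.07, adjusted p = 2.1e-07), 0.56 for VIM (SE 0.06, adjusted p = 8.9e-06), 0.31 for EPCAM (SE 0.11, adjusted p = 0.0345) and -0.44 for ESRP2 (SE 0.09, adjusted p = 0.0015), all by limma. For CDH2 and EPCAM this is the Panc1 change set against a line that barely lists the gene. ESRP2 also passed the minimum through Panc1 alone, with MiaPaCa2 means of 0.287 and 0.361 FPKM. Its difference is thus mostly the Panc1 change of -0.36, since the scale understates changes at such levels. EPCAM lost the call without any 1 of 9 libraries, Panc1 wild-type replicate 2 or 3, Panc1 knockout replicate 3 or any MiaPaCa2 library, with adjusted p-values up to 0.0813. EPCAM also lost it with a pseudocount of 0.1 (adjusted p = 0.0795, limma), with no filter (0.0574), on a TPM scale (0.0735) and with array weights (0.0706). VIM lost it after quantile normalization (0.13, adjusted p = 0.255). ZEB1 (-0.08, 95% interval -0.46 to 0.29) and SNAI1 (0.06, -0.27 to 0.39) were not called. The ESRP2 difference was -0.27 after quantile normalization and was still called.

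**Figure D3:**
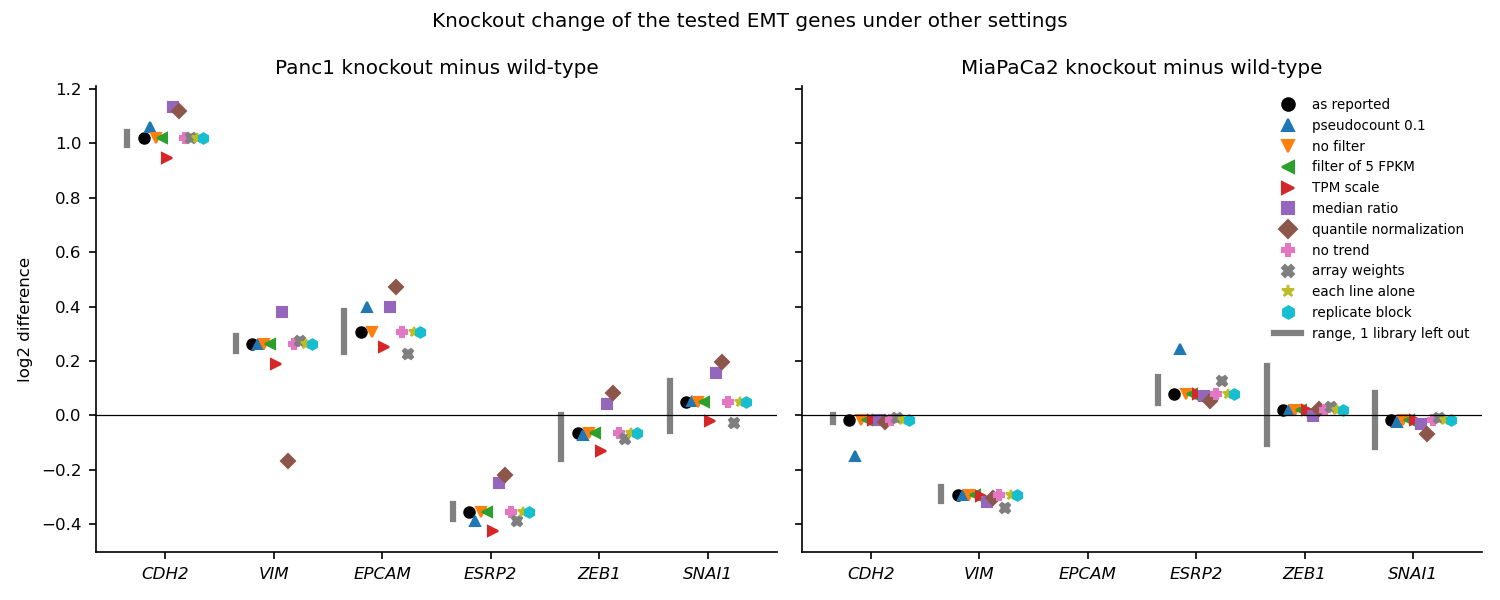
Log2 difference, knockout minus wild-type (vertical axis), of the 6 tested EMT genes in each line under the reported fit and 10 other settings; grey bars span the fits with 1 library left out. VIM in Panc1 moves from 0.26 to -0.17 under quantile normalization, while CDH2 stays between 0.95 and 1.13.

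The wild-type lines differed in 82.7% of all genes, 41.8% higher in Panc1 and 40.9% lower, and all 6 tested EMT genes were called: 4 higher in Panc1 and 2 lower. The 6 also had no overlap between the wild-type lines, as 84.9% of all genes did. CDH2, EPCAM and ESRP2 met the minimum for testing through Panc1 alone, the line where they are high. Their higher calls and lack of overlap were therefore largely set by that filter and are no separate result. Levels were 15.7 FPKM against listing in 1 library for CDH2 and 2.63 FPKM against no listing for EPCAM. ESRP2 was at 10.9 against 0.287 FPKM (log2 difference 3.21, adjusted p = 6.5e-14, limma, or 4.85 with a pseudocount of 0.1) and SNAI1 at 8.35 against 2.48 FPKM (1.43, adjusted p = 4.2e-08). ZEB1 was lower in Panc1, 7.82 ± 1.01 against 10.52 ± 0.691 FPKM (SD, n = 3), with a difference of -0.39 (adjusted p = 0.0098, limma) that became -0.29 (adjusted p = 0.0514) without Panc1 wild-type replicate 3. VIM was lower in Panc1 (-0.12, adjusted p = 0.0202, limma), but quantile normalization reversed this to 0.31 (adjusted p = 9.5e-04). The VIM call was also lost with no filter, on a TPM scale (-0.02, adjusted p = 0.636), with the median ratio and without Panc1 wild-type replicate 1 or 2 or MiaPaCa2 wild-type replicate 2 (-0.09 to -0.11, adjusted p = 0.058 to 0.098).

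The order of levels in Panc1 wild-type was VIM, CDH2, ESRP2, SNAI1 and ZEB1, EPCAM, SNAI2 and CDH1, with ZEB2 and ESRP1 at or near 0; SNAI1 and ZEB1 overlapped. In Panc1 knockout SNAI2, at 0.175 FPKM, stood below CDH1, at 0.372 FPKM, and the SNAI1 range took in that of ESRP2. In both MiaPaCa2 groups the order was VIM, ZEB1, SNAI1 and ESRP2, and the remaining genes were at or below 0.036 FPKM. ZEB1 was 0.809 to 1.06 times SNAI1 in Panc1 wild-type libraries and 3.49 to 4.79 times SNAI1 in MiaPaCa2 wild-type. Relative to ESRP2, ZEB1 was 0.616 to 0.795 times in Panc1 wild-type and 0.869 to 0.934 times in Panc1 knockout.

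The counts of called genes in the related lists below are a description. For all tested genes the shares were 21.8% higher and 41.6% lower in Panc1, and 17.8% higher and 16.3% lower in MiaPaCa2. Of the genes that work beside the cadherins, 9 adhesion partners (catenins, nectins and linkers to actin) were tested: 4 were called higher and 2 lower in Panc1 knockout, median 0.09, and 3 higher and 1 lower in MiaPaCa2. The Panc1 higher count was 2 on a TPM scale and without any 1 Panc1 wild-type library or Panc1 knockout replicate 3, and with the median ratio 6 were higher and 1 lower. AFDN, the nectin-bound actin linker afadin, rose from 28.4 ± 0.238 to 43.3 ± 1.28 FPKM (SD, n = 3) in Panc1 knockout. VCL, which encodes vinculin, rose in Panc1, 186 to 255 FPKM, and fell in MiaPaCa2 labelled knockout, 139.6 to 104 FPKM, the same directions as VIM; the difference between lines was 0.88 (adjusted p = 2.8e-07, limma). NECTIN3 rose in MiaPaCa2, from 3.97 to 7.34 FPKM. Of 11 other classical cadherins listed, 2 were tested: CDH11, the mesenchymal OB-cadherin, rose from 0.639 to 1.99 FPKM in Panc1 knockout, and CDH24 fell from 6.75 to 5.05 FPKM. In MiaPaCa2 limma called 0 of these 2 (1 higher at an unadjusted p under 0.05, and 1 called higher without MiaPaCa2 wild-type replicate 2).

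Other transcription factors went both ways. So did all tested genes, with 21.8% called higher and 41.6% lower in Panc1, and 17.8% and 16.3% in MiaPaCa2. Of 8 tested EMT factors 1 was called higher and 2 lower in Panc1 knockout, but 3 and 1 with the median ratio and 1 and 4 on a TPM scale; the higher count was 2 without Panc1 knockout replicate 2, and the lower count 1 without Panc1 wild-type replicate 1 or knockout replicate 3. SOX9 rose from 41.0 to 54.5 FPKM. In MiaPaCa2 labelled knockout FOXQ1 rose from 0.834 to 1.93 FPKM. TCF3, which encodes the E2A proteins that bind E-boxes, was at 106.9 in MiaPaCa2 wild-type and 91.5 FPKM in labelled knockout, a call (-0.22, adjusted p = 0.0163, limma) lost without MiaPaCa2 wild-type replicate 2 (-0.17, adjusted p = 0.0753) or knockout replicate 1 (-0.19, adjusted p = 0.0625), with quantile normalization (-0.16, adjusted p = 0.0652) and with MiaPaCa2 fitted alone (adjusted p = 0.0655). Among 5 tested epithelial factors, 1 was called higher and 1 lower in Panc1 knockout, and 1 higher and 0 lower in MiaPaCa2. GRHL3, a grainyhead-like factor of epithelial barriers, rose in Panc1 knockout from 2.93 to 6.07 FPKM, and KLF4 fell from 6.47 to 3.78 FPKM. TP63 rose in MiaPaCa2 from 12.4 to 21.1 FPKM (0.73, adjusted p = 2.8e-04, limma), which was not called at a pseudocount of 0.1 (adjusted p = 0.146).

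**Figure D4:**
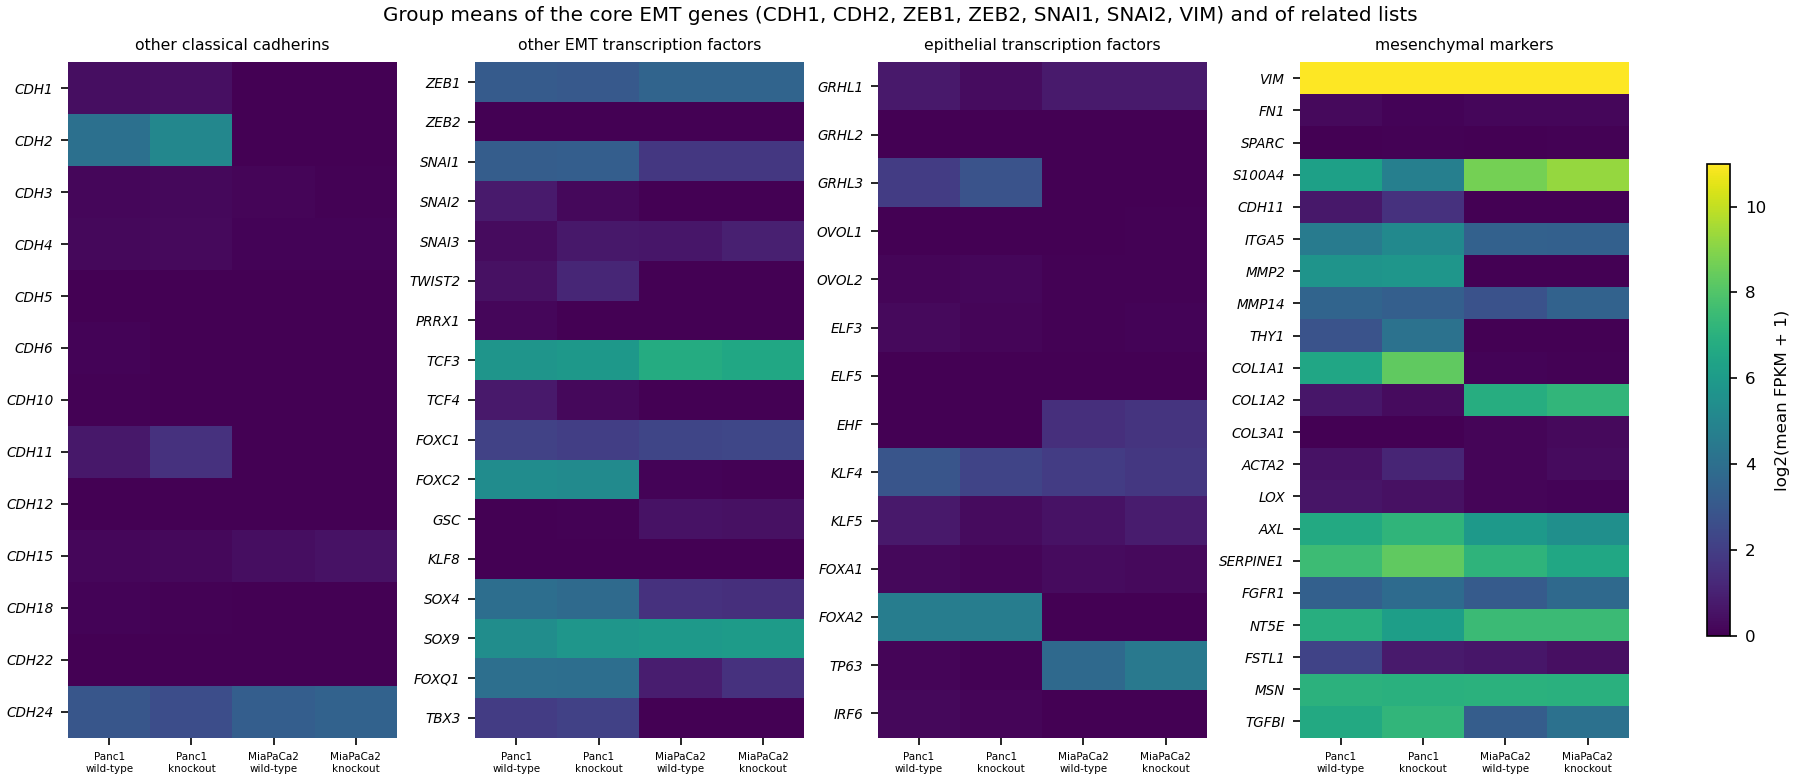
Mean level as log2(mean FPKM + 1) (colour) in the 4 groups (columns) for genes of 4 related lists (panels). Core EMT genes of the same kind are in the top rows, except in the panel of epithelial transcription factors, which holds none. VIM is the brightest row in each group, whereas FN1 and SPARC stay below 0.21 FPKM.

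Mesenchymal and epithelial markers went both ways in Panc1. Among all tested genes, 21.8% were called higher and 41.6% lower in Panc1, and 17.8% and 16.3% in MiaPaCa2. Of 15 tested mesenchymal markers, 8 were called higher and 3 lower in Panc1 knockout, with a median of 0.48 against -0.10 for all genes; the lower count was 5 on a TPM scale, with array weights, with no filter, with Panc1 fitted alone and without MiaPaCa2 knockout replicate 2. COL1A1, which encodes 1 of the chains of type I collagen, rose from 89.3 ± 2.56 to 314 ± 46.5 FPKM (SD, n = 3), and S100A4 fell from 74.7 ± 6.30 to 25.9 ± 1.79 FPKM. In MiaPaCa2, 4 were called higher and 3 lower; TGFBI rose from 8.53 to 16.2 FPKM and MMP14 from 5.83 to 9.88 FPKM. FN1 and SPARC, fibronectin and osteonectin, named after their values were seen, had group means of 0.013 to 0.206 FPKM in libraries where VIM was at 1905 FPKM or more. Of 13 tested epithelial surface and polarity genes, 4 were called higher and 6 lower in Panc1 knockout. LSR, the tricellular junction protein angulin-1, rose from 9.05 to 27.1 FPKM, and the claudin CLDN7 fell from 3.999 to 1.61 FPKM. In MiaPaCa2 0 of 13 were called by limma (1 higher and 0 lower at an unadjusted p under 0.05), and 4 were called higher with array weights and 1 without MiaPaCa2 wild-type replicate 1 or knockout replicate 3.

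For genes that act with the ESRPs, ZEBs and SNAIs, the counts in each direction in Panc1 moved with the scaling. They are given beside all-gene shares, as deposited, of 21.8% higher and 41.6% lower in Panc1, and 17.8% and 16.3% in MiaPaCa2. Of 13 tested EMT splicing regulators, 2 were called higher and 8 lower in Panc1 knockout, but 2 and 3 with the median ratio and 0 and 9 on a TPM scale. In MiaPaCa2, limma called 0 higher (0 also at an unadjusted p under 0.05) and 6 lower, and 0 and 7 with the median ratio. MBNL1, a splicing factor of the muscleblind family, fell from 29.1 to 17.6 FPKM in Panc1 knockout. MBNL2 was at 17.6 in wild-type and 14.2 FPKM in knockout, a call lost with the median ratio (adjusted p = 0.0759, limma) and with quantile normalization (adjusted p = 0.0805). PCBP1, a poly(C)-binding protein, fell from 181 to 104 FPKM and RBM47 from 2.07 to 1.37 FPKM in MiaPaCa2. Of 9 tested genes with ESRP-regulated exons, whose total level and not exon use is measured here, 3 were called higher and 3 lower in Panc1 knockout, but 1 and 4 on a TPM scale; the higher count was also 1 without Panc1 wild-type replicate 1 or 3 or knockout replicate 2 or 3. In MiaPaCa2, limma called 0 higher (0 at an unadjusted p under 0.05) and 3 lower. SLK fell from 17.0 to 9.99 FPKM in Panc1, MAGI1 rose in Panc1, 1.75 to 2.63 FPKM, and fell in MiaPaCa2, 1.67 to 1.23 FPKM, and SCRIB fell in MiaPaCa2 from 30.9 to 25.7 FPKM.

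**Figure D5:**
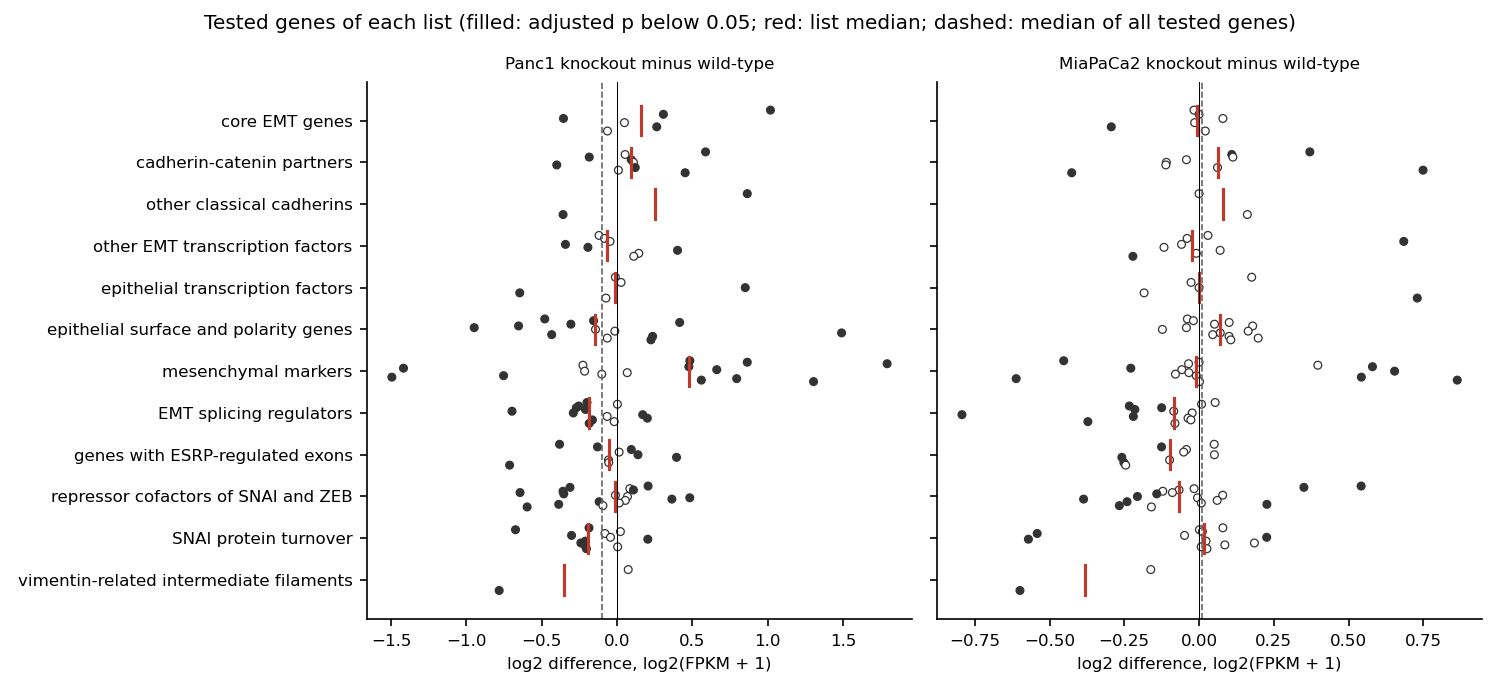
Log2 difference, knockout minus wild-type (horizontal axis), of each tested gene in the core EMT genes and 11 related lists (vertical axis) in Panc1 and MiaPaCa2; filled points passed an adjusted p of 0.05, red lines are list medians and dashed lines the median of all genes. In Panc1 the mesenchymal markers have a median of 0.48 and span both signs.

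Of 17 tested repressor cofactors of SNAI and ZEB, 4 were called higher and 7 lower in Panc1 knockout, and 7 and 6 with the median ratio. The 4 and 7 lie near the Panc1 shares of all tested genes, 21.8% higher and 41.6% lower. In MiaPaCa2 3 were higher and 5 lower, where 17.8% of all tested genes were higher and 16.3% lower. The Polycomb subunits EZH2 and SUZ12 fell in Panc1, EZH2 from 23.5 to 14.7 FPKM and SUZ12 from 23.4 to 15.2 FPKM. AJUBA, a LIM protein that binds SNAI1, rose from 4.04 to 6.34 FPKM in MiaPaCa2, and the lysyl oxidase LOXL3 fell from 3.74 to 2.62 FPKM. Of 12 tested genes of SNAI protein turnover, 1 was higher and 7 lower in Panc1 knockout, but 2 and 1 with the median ratio, 1 and 2 with quantile normalization and 0 and 8 on a TPM scale; the lower count was 4 without Panc1 wild-type replicate 1 or 3 or knockout replicate 2. COPS2, a COP9 signalosome subunit, fell from 17.2 to 10.4 FPKM. FBXW7 was at 2.30 and 1.80 FPKM in Panc1 wild-type and knockout, a call (adjusted p = 0.0194, limma) lost with the median ratio, with quantile normalization (adjusted p = 0.112) and without Panc1 wild-type replicate 2 (adjusted p = 0.0541) or knockout replicate 2 (adjusted p = 0.0817). In MiaPaCa2 the F-box gene FBXO11 fell from 20.1 to 13.2 FPKM and the SNAI1 phosphatase gene CTDSP1 from 35.9 to 24.4 FPKM. In MiaPaCa2 1 turnover gene was called higher and 2 lower, and the count of higher genes was 0 or 2 with 1 MiaPaCa2 library left out. SYNM, which encodes synemin, a partner of vimentin filaments, was the 1 gene called among 2 tested relatives or partners of vimentin. It fell in both lines, from 24.8 to 14.01 FPKM in Panc1 and from 5.24 to 3.11 FPKM in MiaPaCa2.

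Markers of the labelled cell type and of other cells were read beside these values. Ductal keratins were abundant: the 10 ductal markers summed to 1278 to 1317 FPKM in Panc1 wild-type, 1194 to 1304 in Panc1 knockout, 1283 to 1333 in MiaPaCa2 wild-type and 937 to 968 in MiaPaCa2 labelled knockout, while CFTR had group means of at most 0.0023 FPKM. Of 8 tested ductal markers, 4 were called higher and 3 lower in Panc1 knockout, and 0 and 3 in MiaPaCa2 (limma, 0 higher at an unadjusted p under 0.05). The shares of all tested genes were 21.8% higher and 41.6% lower in Panc1, and 17.8% and 16.3% in MiaPaCa2. KRT19 fell in both lines, from 541 to 254 FPKM in Panc1 and from 105.4 to 35.01 FPKM in MiaPaCa2, and GATA6 fell in Panc1 from 1.42 to 0.674 FPKM. KRT8 moved in opposite directions, rising in Panc1 from 372 to 514 FPKM and falling in MiaPaCa2 from 649 to 457 FPKM. The other 3 called higher in Panc1 were KRT18 (309.9 to 404 FPKM), MUC1 (22.5 to 26.7 FPKM) and SOX9, given above; KRT18 and MUC1 were named after their values were seen. Processed copies of keratin genes may share their reads. Of the 7 fibroblast markers 4 were listed, summing to 30.6 to 33.6 FPKM in Panc1 wild-type, 40.4 to 41.3 in Panc1 knockout and 3.72 to 6.39 in MiaPaCa2. LUM had group means of at most 0.0073 FPKM. Of the 2 tested, PDGFRA fell in Panc1 from 11.2 to 1.52 FPKM, and FBLN1 rose in Panc1 from 20.1 to 38.8 and in MiaPaCa2 from 3.82 to 5.49 FPKM. The leukocyte gene PTPRC and the endothelial gene PECAM1 had group means of at most 0.004 FPKM. The 7 listed leukocyte markers summed to 165 to 178 FPKM in Panc1 and 27.3 to 36.7 in MiaPaCa2. Most of this was CD68, a lysosomal gene, except in MiaPaCa2 labelled knockout, where LAPTM5 came close to it. CD68 fell in MiaPaCa2 from 26.7 to 18.7 FPKM. LAPTM5, the other tested gene, rose in both lines, from 0.582 to 3.42 FPKM in Panc1 and from 2.03 to 16.9 FPKM in MiaPaCa2. The endothelial sum was 0.077 to 0.316 FPKM in Panc1, and in MiaPaCa2 it was 7.71 to 10.1 in wild-type and 0.181 to 0.289 in labelled knockout, where ECSCR, the 1 tested gene, fell from 8.77 to 0.109 FPKM. The part of these markers in the EMT values was not tested.

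The genes whose pattern over the 12 libraries was most like each tested EMT gene were named by Pearson's r on log2(FPKM + 1), as a description; the 12 points share their 4 groups. For CDH2 these were ROR1, FGF11 and SCNN1B (r above 0.99 each), at 3.52, 4.98 and 1.94 FPKM in Panc1 wild-type and 5.71, 8.70 and 2.89 FPKM in knockout. For EPCAM they were ECHDC3, CPEB1 and MIR1247, for SNAI1 CARHSP1, CASC3 and STUB1, and for ESRP2 PTGER4, SORL1 and SFMBT2, all at r above 0.99. ZEB1 was most like ANKRD12, FER and ZNF91 (0.971, 0.968 and 0.963). VIM was most like VIM-AS1 (0.979), CCDC85C (0.976) and IQCJ-SCHIP1 (0.967). Over the 6 libraries of 1 line r was lower for many of these pairs: for SNAI1 in Panc1 it was 0.736 with CARHSP1, 0.780 with CASC3 and 0.582 with STUB1. For ESRP2 in MiaPaCa2 it was -0.264 with SORL1, and for CDH2 in MiaPaCa2 -0.316 with FGF11, where SORL1 and FGF11 were near 0. VIM-AS1, an antisense transcript at 17256238 to 17272017, overlaps VIM by 1778 bases; its means were 715 and 896 FPKM in Panc1 and 832 and 617 FPKM in MiaPaCa2, wild-type first. Whether counting used the strand is not given, so reads of VIM and VIM-AS1 cannot be told apart where they overlap. VIM was 2.84 to 3.34 times VIM-AS1 in each library.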

How the data were processed

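RNA of 12 libraries was sequenced on a BGISEQ-500, per the labels' protocols. Per the submitters' processing notes and the series' design text, the tools were TopHat2 2.0.14, for alignment to hg19 and its UCSC gene models, and STAR 2.5.2a, for FPKM. The values are the deposited FPKM per gene symbol. Library preparation, strand, read number and the handling of reads that map to several places are not stated. The 12 tables were joined by symbol, with 0 for a gene that a library did not list. Levels are the mean ± SD of 3 libraries.

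Differences were fitted with limma 3.58.1 (R 4.3.3) on log2(FPKM + 1). The model had 1 mean per group over 12 libraries, 8 residual degrees of freedom and a trend of the variance with the mean. Tests were two-sided, and p-values were adjusted by Benjamini-Hochberg over 13340 genes, those averaging 1 FPKM or more in the 6 libraries of either line. The script was checked on simulated data. The alternatives were a pseudocount of 0.1, no filter, a filter of 5 FPKM, a TPM scale (equal sums), scaling by the median ratio, quantile normalization, no trend, array weights, each line alone, a replicate block and each library left out, which leaves a group of 2 assumed to vary like the others. No GC or length correction was run. Positions come from GENCODE release 44 mapped to GRCh37 (hg19), and the comparison with genes within 5 Mb was added after the data were seen.

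The 10 genes and the 16 other lists were chosen with earlier results of these data known. Beside the 10 genes, the text names ASAP2. Per list and line it names the 2 called genes that changed most, among those without overlap that averaged 1 FPKM or more in the higher group. In these lists, 2 genes are counted but not reported here by name. It also names the 3 tested genes most like each tested EMT gene. Marker genes named at or near 0, FN1, SPARC, KRT18 and MUC1 were chosen after their values were seen.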

Additional observations from a re-analysis of the deposited data

Results flagged for a closer look

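Under the same contrast, knockout minus wild-type, 4 of the EMT genes differed between Panc1 and MiaPaCa2 by a test of the difference itself, where 57.4% of all tested genes did. The difference, Panc1 change minus MiaPaCa2 change on the log2(FPKM + 1) scale, was 1.03 for CDH2 and 0.31 for EPCAM, both of which MiaPaCa2 barely lists or does not list. EPCAM lost this call in most of the alternatives, with adjusted p-values up to 0.0813 (limma). It was 0.56 for VIM, which was higher in 3 of 3 Panc1 knockout libraries and lower in 3 of 3 MiaPaCa2 libraries labelled knockout than in any wild-type library of the same line, but 0.13 (adjusted p = 0.255, limma) after quantile normalization. It was -0.44 for ESRP2, whose level in MiaPaCa2 stayed below 0.43 FPKM in each library. ASAP2 itself was lower by 1.36 in Panc1 and by 0.13 in MiaPaCa2 (-1.36 and -0.13); its part in the difference between the lines was not tested.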

How the results depend on the processing

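Read depth is unknown, so no counting error can be given, and values under 1 FPKM (CDH1, ZEB2, SNAI2, ESRP1) are the least certain. Of the log2 differences of the EMT genes under all alternatives, 478 stayed called in the same direction or stayed uncalled. The call was lost in 22 and gained in 4, and 2 reversed with a call. Differences that stayed uncalled could change sign: ZEB1 in Panc1 ran from -0.13 to 0.08 over the scaling, filter and model settings. Quantile normalization reversed VIM in Panc1 (-0.17) and between the wild-type lines (0.31). The 1 lower call in Panc1 became 2 with no filter (SNAI2 enters) and 2 with quantile normalization, and that in the difference between lines became 2 with no filter. The 2 lower calls between the wild-type lines became 1 with no filter, on a TPM scale, with the median ratio and with quantile normalization, and ranged from 1 to 2 with 1 library left out. CDH1 (0.39) and SNAI2 (0.79) were called between the wild-type lines with no filter. For the related lists, 81 counts moved by over 1.5 times and 1239 did not. Same-numbered wild-type and knockout libraries did not visibly deviate together (r = -0.165 to 0.0777, 0 of 6 pairs over 0.1). Differently numbered pairs ran from -0.192 to 0.254. With 3 libraries a group this check cannot tell whether the numbers pair them. With the replicate number as a block, 8141 genes were called in Panc1 (8466 without it) and 3959 in MiaPaCa2 (4545 without it), and among the EMT genes EPCAM lost its call in the difference between lines (0.31, adjusted p = 0.0716, limma). The block also ended the Panc1 call of FBXW7 (adjusted p = 0.0574, limma). It lowered the Panc1 counts of higher genes from 4 to 2 for the adhesion partners and from 3 to 1 for the genes with ESRP-regulated exons. With the block, the lower count of relatives or partners of vimentin in MiaPaCa2 rose from 1 to 2. The libraries of a number did not correlate best with each other in all cases.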
